A study of Jaculus jaculus with 29 samples.

Results

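The neuropeptide precursor genes Gal, Cartpt, Crh, Trh, Nucb2, Apln, Adm, Nts, Tac1 and Cck were followed in the supraoptic nucleus of the lesser Egyptian jerboa, Jaculus jaculus, a desert rodent. These 10 genes, of 29170 in the count table, form a named list of hypothalamic peptides other than vasopressin, oxytocin and the opioids, and the list is a set of symbols with no threshold on measured values, though it was drawn up with earlier results of these data known. Symbols in the authors' deposited table found 5 of them (Gal, Crh, Nucb2, Apln and Tac1), and the other 5 were found by position against RefSeq genes of the same assembly, mJacJac1, on which all coordinates are given. Polyadenylated RNA was sequenced from tissue punches of the nucleus. Rehydrated animals (9 libraries, 4 female and 5 male) had 7 days of water restriction and then 3 days of free water. Dehydrated animals (10 libraries, 6 female and 4 male) had 11 days of water restriction, and Control animals (10 libraries, 5 female and 5 male) had free water throughout. All were housed singly at 25 °C on dry pellets, and strain and age are not given in the sources used here. Each library is named by group, letter and number, and the sex label differs from that letter in Dehydrated M02, Control F03 and Control M05. No label states that each library is a separate animal, so p-values measure the spread between these libraries.

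Peptide precursors are cut in the secretory pathway and stored in dense-core granules, from which active peptides are released at terminals or dendrites. In the rat, magnocellular vasopressin neurons also make galanin and apelin, and oxytocin neurons also make cholecystokinin and corticotropin-releasing hormone, while CART peptide and nesfatin-1 have been located in the same nucleus. Thyrotropin-releasing hormone, neurotensin and the substance P precursor are made in many neurons around it. Adrenomedullin is a vasodilator peptide made by vessels as well as neurons.

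The libraries held 10797577 to 18856620 counts. Avp and Oxt, the hormone genes of the nucleus, were found in all of them. Avp lay between 201 and 5179 CPM (read counts scaled to the TMM-adjusted library total) and Oxt between 159 and 1975 CPM. Both lowest values were in Rehydrated M08, and these genes alone do not fix the position of a punch. Neighbouring tissue was also in the punches: Hcrt, the orexin precursor of the lateral hypothalamus, ran from 0.0609 to 91.3 CPM, and Pomc, an arcuate precursor, stood at 331 CPM in Rehydrated F05, while no Dehydrated library passed 14.4 CPM and no Control library 16.5 CPM. Control M01, the shallowest library, stands apart from the rest over the transcriptome. In bulk tissue, fewer cells of a type and less RNA per cell cannot be told apart.

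All 10 precursors passed the filter on low counts, from the abundant Trh to the scarce Apln and Adm. Per kilobase of gene model, Control libraries averaged 194 ± 75.6 CPM for Trh, 105 ± 52.1 for Gal, 56.2 ± 20.04 for Nts, 35.5 ± 4.31 for Tac1 and 25.7 ± 9.42 for Nucb2 (SD, n = 10). Cck followed at 11.6 ± 6.43 CPM per kilobase, then Crh at 9.37 ± 4.92, Cartpt at 7.99 ± 2.69, Apln at 1.73 ± 0.986 and Adm at 1.42 ± 0.781. Every pair of neighbours in this order had overlapping ranges over Control libraries, except Cartpt above Apln, where all 10 libraries kept the order without overlap. Gal was above Nts and Nucb2 above Cck in all 10 libraries, and Trh was above Gal in 9. Cck above Crh, Crh above Cartpt and Apln above Adm each held in 6 of 10 libraries and are not ordered beyond their spread. On the same per-length scale Avp averaged 1911 ± 1221 CPM and Oxt 1933 ± 1151 CPM, so the classical hormones lay far above all 10. The Crh model used for counting is a single interval of 546 bases, while RefSeq places the gene from 136332965 to 136334894 on chromosome 2, so reads outside that interval were not counted. The Apln model holds 311 bases from 125899583 on chromosome X, while RefSeq places that gene from 125896903 to 125905893. For Nucb2 the model starts at 183953055 on chromosome 3 and the RefSeq gene at 183929786. Reads outside these models were not counted either, so levels of these genes may be understated.

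**Figure D1:**
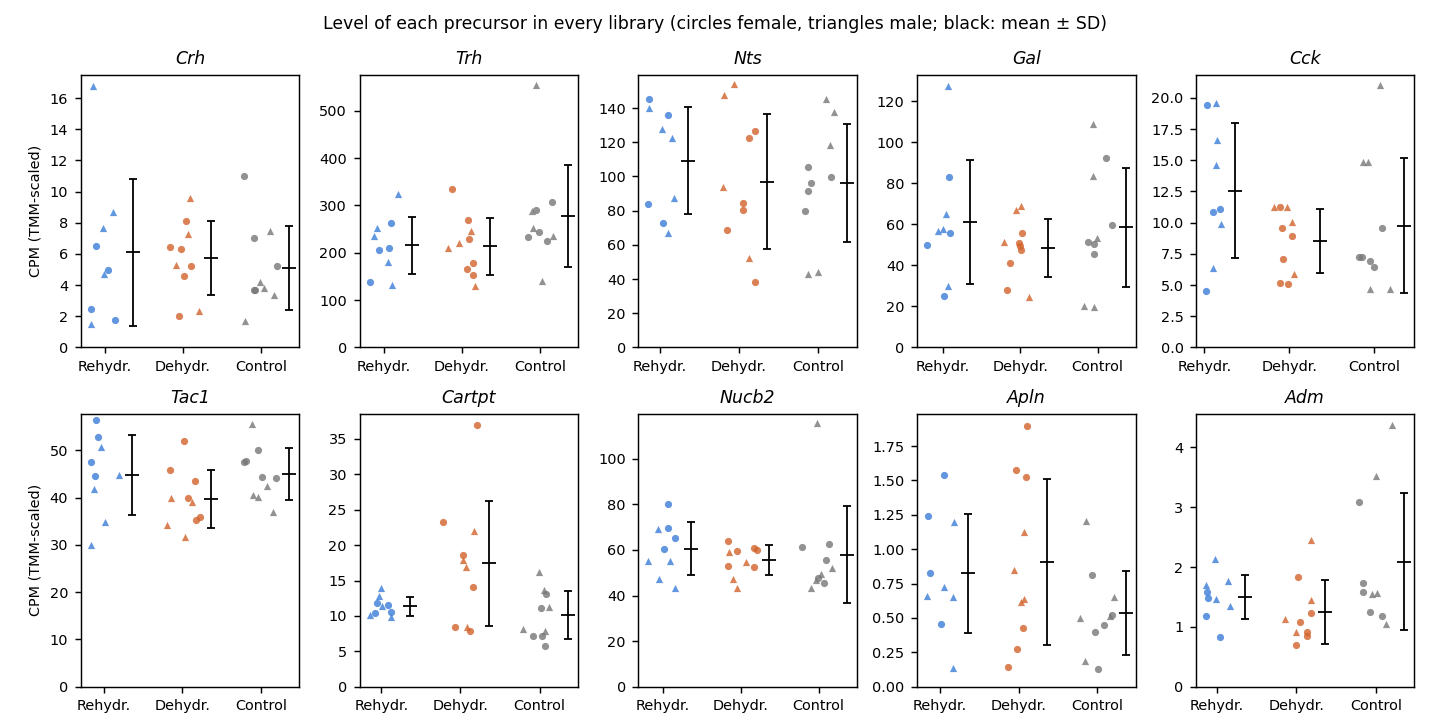
TMM-scaled CPM (y axes, each from 0) of the 10 precursors in every library of the Rehydrated, Dehydrated and Control groups; circles are females, triangles males, and the black mark and bar give mean ± SD. The groups overlap in every panel, 6 Dehydrated libraries of Cartpt lie above the highest Control library, and Control M01 stands alone at 116 CPM in the Nucb2 panel.

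With water restriction for 11 days, no member passed the threshold: 0 of 10 had an adjusted p under 0.05 with edgeR and 0 with DESeq2, against 0.125% of the 17558 genes tested with edgeR. At an unadjusted p under 0.05 there were 3 of 10 (Cartpt, Adm and Tac1), against 6.37% of all genes. Fold changes were positive in 4 members and negative in 6, with a median log2 value of -0.10, beside -0.0030 over all genes. Members were measured less precisely than most genes, with a median standard error of 0.24 against 0.12 over all genes on the log2 scale.

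Cartpt, the precursor of CART peptide, had the largest difference (ENSJJAG00000025224, chromosome 14, 58392210 to 58394723, minus strand, 3 exon intervals). Dehydrated libraries ran from 7.86 CPM in M02 through a median of 17.4 to 36.99 CPM in F05, against 5.76 CPM in F06, a median of 9.65 and 16.2 CPM in M04 among Control libraries. Ranges overlapped, but 6 of 10 Dehydrated libraries lay above the highest Control library, while Dehydrated M02, F07 and M05 lay at 7.86, 8.43 and 8.44 CPM, under the Control median. The log2 fold change was 0.80 (SE 0.23, 95% interval 0.33 to 1.26), and it did not pass after adjustment (edgeR adjusted p = 0.374). The gene ranked 67 of 17558 by p-value. In the authors' deposited table the log2 fold change was 0.84 with an adjusted p of 0.0511, just above the threshold of 0.05. Among libraries with F in their name the value was 1.18, and among those with M it was 0.36. Without Dehydrated F05 it was 0.61. Over 28 libraries, with group and sex removed, Cartpt had Spearman's rho of 0.15 with Hcrt and 0.10 with Pmch, the precursor of melanin-concentrating hormone in the lateral hypothalamus, while the other two lateral hypothalamic markers had -0.33 (Lhx9) and 0.55 (Pdyn, which vasopressin neurons also make).

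Adm, the adrenomedullin precursor (ENSJJAG00000037436, chromosome 3, 176953304 to 176955594, plus strand), was scarce, with a median of 18 counts in Dehydrated and 25.5 counts in Control libraries. Its level ran from 0.695 through a median of 1.11 to 2.46 CPM in Dehydrated libraries, against 1.04, 1.58 and 4.38 CPM in Control libraries. The lowest 4 Dehydrated libraries lay under every Control library, and 3 Control libraries (F01, M06 and M01) stood above 3 CPM. The log2 fold change was -0.68 (SE 0.25, 95% interval -1.20 to -0.16, edgeR adjusted p = 0.646), and -0.54 without Control M01. Red-cell transcripts moved with it: Hba1 and Alas2, the 2 of 4 blood markers that were measured, were lower in Dehydrated libraries at an unadjusted p under 0.05, and their summed level was 31.7 to 187 CPM in Dehydrated against 114 to 806 CPM in Control libraries. Across libraries Hba1 and Alas2 were also among the 8 genes most like Adm, with Spearman's rho of 0.59 and 0.57, and were picked out after their values were seen. In the other contrast with Control, the summed blood level averaged 318 CPM in Rehydrated and 299 CPM in Control libraries, while the log2 fold change of Adm was -0.49. The part of blood RNA in the Adm difference was not tested.

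Tac1, the precursor of substance P and neurokinin A (ENSJJAG00000013765, chromosome 10, 67014661 to 67023578, plus strand), was among the steadiest members. Dehydrated libraries ran from 31.6 through 39.5 to 52.0 CPM and Control libraries from 36.99 through 44.2 to 55.6 CPM. The lowest 4 Dehydrated libraries lay under the Control range, and the other 6 lay within it. The log2 fold change was -0.20 (SE 0.090, 95% interval -0.39 to -0.016, edgeR adjusted p = 0.744), and -0.15 without Control M01.

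The releasing hormones showed no change past the test. Trh (ENSJJAG00000034286, chromosome 14, 64779114 to 64781863, minus strand), which drives thyrotropin secretion and was the most abundant member, averaged 214 ± 61.0 CPM in Dehydrated and 277 ± 108 CPM in Control libraries (SD, n = 10 each). Its log2 fold change of -0.37 (SE 0.19, edgeR adjusted p = 0.782) was -0.21 without Control M06, which stood at 555 CPM while the other Control libraries reached 307 CPM. Crh, the head of the stress axis (ENSJJAG00000011598, chromosome 2, 136333350 to 136333895, minus strand), averaged 5.72 ± 2.38 CPM in Dehydrated and 5.12 ± 2.69 CPM in Control libraries. Its interval of -0.59 to 0.89 on the log2 scale allows either direction.

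Galanin, neurotensin and cholecystokinin precursors also stayed within their spread. Gal (ENSJJAG00000015277, chromosome 1, 159147010 to 159155177, minus strand) averaged 48.5 ± 14.4 CPM in Dehydrated and 58.6 ± 29.04 CPM in Control libraries (log2 interval -0.84 to 0.31). Nts (ENSJJAG00000027945, chromosome 6, 129302371 to 129316783, plus strand) averaged 96.9 ± 39.4 CPM in Dehydrated and 96.1 ± 34.3 CPM in Control libraries (-0.47 to 0.50). Cck (ENSJJAG00000023903, chromosome 17, 3242969 to 3248653, plus strand) averaged 8.55 ± 2.54 CPM in Dehydrated and 9.75 ± 5.40 CPM in Control libraries (-0.66 to 0.41). None of these differences had an unadjusted p under 0.05, and the data allow changes of either direction within those intervals.

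Apln, the precursor of apelin, which opposes vasopressin's action on water balance in the rat, was the scarcest in counts (ENSJJAG00000024288, chromosome X, 125899583 to 125905899, minus strand), with medians of 12.0 counts in Dehydrated and 7.5 counts in Control libraries. It averaged 0.907 ± 0.600 CPM in Dehydrated and 0.538 ± 0.307 CPM in Control libraries, and 3 Dehydrated libraries (F04, F05 and F06) lay above the highest Control library. The log2 fold change of 0.73 (SE 0.41, 95% interval -0.11 to 1.57, edgeR adjusted p = 0.792) did not pass. Nucb2, from which nesfatin-1 is cut (ENSJJAG00000016858, chromosome 3, 183953055 to 183981751, plus strand), averaged 55.4 ± 6.52 CPM in Dehydrated and 58.0 ± 21.3 CPM in Control libraries. Its interval of -0.36 to 0.20 was the narrowest after that of Tac1, and its direction turned to 0.097 without Control M01.

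**Figure D2:**
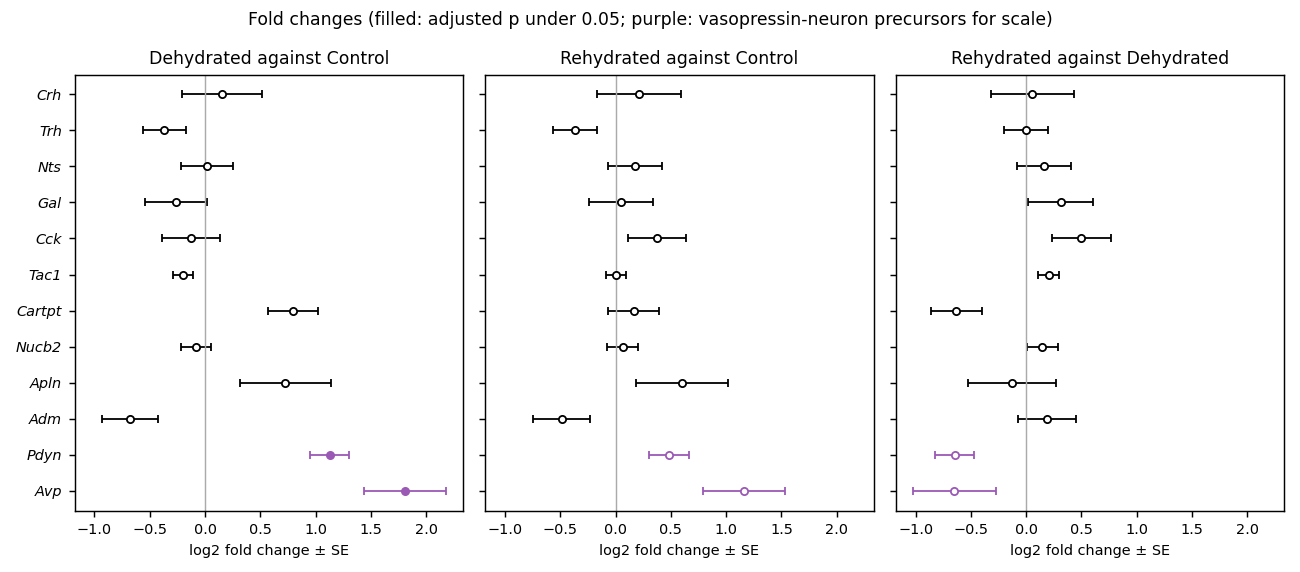
Log2 fold changes (x axes, points) with standard errors (bars) of the 10 precursors in Dehydrated against Control, Rehydrated against Control and Rehydrated against Dehydrated, from edgeR; Pdyn and Avp in purple give the scale. Filled points, Pdyn and Avp in the first panel, had an adjusted p under 0.05, and all member points are open.

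After 3 days of regained water, 0 of 10 members differed from Control with edgeR or with DESeq2, against 0% of all genes with edgeR. At an unadjusted p under 0.05 there were 0 of 10 members, against 7.48% of all genes. Cck averaged 12.6 ± 5.39 CPM in Rehydrated (SD, n = 9) and 9.75 ± 5.40 CPM in Control libraries (n = 10), with a log2 fold change of 0.37 (95% interval -0.17 to 0.91) that was 0.21 without Rehydrated F05. Apln was at 0.826 ± 0.433 CPM in Rehydrated and 0.538 ± 0.307 CPM in Control libraries (log2 fold change 0.60, interval -0.26 to 1.46). Trh was at 216 ± 61.1 CPM in Rehydrated and 277 ± 108 CPM in Control libraries, a log2 difference of -0.37 that was -0.18 without Control M06. Adm was at 1.501 ± 0.369 CPM in Rehydrated and 2.09 ± 1.15 CPM in Control libraries (log2 fold change -0.49, interval -1.02 to 0.043). Cartpt had a log2 fold change of 0.16 (interval -0.31 to 0.64), Crh 0.21 (-0.57 to 0.99) and Nts 0.18 (-0.32 to 0.67). The smallest differences were those of Nucb2 at 0.063 (interval -0.22 to 0.35), Gal at 0.047 (-0.55 to 0.64) and Tac1 at 0.0016 (-0.19 to 0.19). In the authors' deposited table for the same contrast, the smallest p of a member was that of Nucb2, with a log2 fold change of 0.26 and an adjusted p of 0.284. That table has no column for Control M01, the library highest in Nucb2. With 1 library left out in turn, the edgeR log2 fold change of Nucb2 ran from 0.012 to 0.26, so its place among the smallest depends on the libraries kept. The same Control libraries serve both contrasts, so values such as those of Trh, -0.37 in each, share them.

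In Rehydrated against Dehydrated libraries, 0 of 10 members passed with edgeR or with DESeq2, against 0.0228% of all genes with edgeR. At an unadjusted p under 0.05 there were 2 of 10 (Cartpt and Tac1), against 3.88% of all genes. Cartpt ran from 9.88 CPM in M04 through 11.4 to 13.9 CPM in M01 among Rehydrated libraries, against 7.86 through 17.4 to 36.99 CPM among Dehydrated libraries. All 9 Rehydrated libraries lay under the Dehydrated median and all 9 lay above the Control median, though ranges overlapped in both contrasts. The log2 fold change was -0.63 (SE 0.23, 95% interval -1.11 to -0.16, edgeR adjusted p = 1.00), and -0.44 without Dehydrated F05. Tac1 differed by 0.20 on the log2 scale (SE 0.092, edgeR adjusted p = 1.00), with 44.8 ± 8.43 CPM in Rehydrated and 39.8 ± 6.10 CPM in Dehydrated libraries. Cck had a log2 difference of 0.50 (95% interval -0.047 to 1.04), or 0.32 without Rehydrated F05, and 4 Rehydrated libraries lay above the highest Dehydrated one. Gal differed by 0.31 on the log2 scale (95% interval -0.29 to 0.91), Adm by 0.19 (-0.35 to 0.73), Nts by 0.16 (-0.34 to 0.66) and Nucb2 by 0.14 (-0.15 to 0.43). Values of Apln at -0.13 (interval -0.95 to 0.70), Crh at 0.054 (-0.72 to 0.83) and Trh at 0.00080 (-0.41 to 0.41) also allow either direction.

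The spread within a group differed for Cartpt more than for other members. The SD of its log2 CPM was 0.16 in Rehydrated libraries, 0.73 in Dehydrated and 0.48 in Control libraries, beside medians over all genes of 0.23 in Rehydrated, 0.20 in Dehydrated and 0.34 in Control libraries. By this SD Cartpt stood at the 29.8th percentile of tested genes in the Rehydrated, the 94.0th in the Dehydrated and the 69.5th in the Control group. Crh was at or above the 86.6th percentile in every group, with its highest library at 11.0 times the lowest among Rehydrated libraries. A difference in spread was not tested.

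Between females and males, over all 3 groups with group in the model, 0 of 10 members passed with edgeR or DESeq2, against 0.0342% of all genes with edgeR. Tac1 was the 1 member with an unadjusted p under 0.05, against 3.87% of all genes. It averaged 45.8 ± 5.88 CPM in 15 female libraries and 40.2 ± 6.96 CPM in 14 male libraries, a log2 difference of 0.21 (SE 0.075, edgeR adjusted p = 0.993). The female mean was higher within each group: 50.3 against 40.4 CPM in Rehydrated, 42.1 against 36.2 CPM in Dehydrated and 46.8 against 43.1 CPM in Control animals. Of the other members, Adm had a female minus male log2 difference of -0.42 (95% interval -0.86 to 0.010) and Cck of -0.40 (-0.85 to 0.041). Values for Crh (-0.17), Gal (-0.15), Nts (-0.14), Cartpt (-0.095), Trh (-0.064), Nucb2 (0.12) and Apln (0.16) had intervals on both sides of 0. No member's response differed between the sexes past the threshold: with edgeR, 0 of 10 for dehydration, against 0% of all genes, and 0 of 10 for rehydration, against 0%. At an unadjusted p under 0.05 there were 0 members for dehydration, against 6.05% of genes, and 1 for rehydration, against 6.18%. That member was Crh, with 3.92 ± 2.19 CPM in Rehydrated and 6.12 ± 3.06 CPM in Control females, and 7.86 ± 5.69 CPM in Rehydrated and 4.11 ± 2.09 CPM in Control males. The female response minus the male one was -1.57 on the log2 scale (95% interval -3.05 to -0.093, edgeR adjusted p = 0.799).

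While no member passed a treatment comparison, Gal, Nts, Crh and Cck varied together from library to library. Deviations of log2 CPM from the fitted group and sex were correlated over 28 libraries (Control M01 left out), for 45 pairs of members and 20 pairs of a member with Avp or Oxt. By Spearman's rho 9 of the 65 pairs had an adjusted p under 0.05 in a permutation test of libraries within groups, 8 between members and 1 with Avp. All 6 pairs among Gal, Nts, Crh and Cck were positive and among these, with rho from 0.54 to 0.71. By Pearson's r, 5 of these 6 and no other pair passed. The values of 1 library share a total count, a punch and an RNA preparation.

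Gal and Cck had the highest rho, 0.71 (permutation test, adjusted p = 0.00455), with r = 0.81 (adjusted p = 0.000975) and r = 0.76 without the 2 libraries farthest from the Gal median, Control F03 and Control M06. Spearman's rho was 0.63 within Rehydrated, 0.66 within Dehydrated and 0.78 within Control libraries. Crh and Nts followed at rho 0.70 (permutation test, adjusted p = 0.00455), with r = 0.74 (adjusted p = 0.00065) and r = 0.75 without Rehydrated M01 and M06, and rho was 0.92 within Rehydrated, 0.68 within Dehydrated and 0.72 within Control libraries. Gal and Nts reached rho 0.66 and r = 0.68 (permutation tests, adjusted p = 0.00559 and 0.00244), Nts and Cck 0.64 and 0.69 (0.00559 and 0.00195), and Gal and Crh 0.63 and 0.62 (0.00984 and 0.0143). Crh and Cck were the weakest of the 6, with rho 0.54 and r = 0.52 (permutation tests, adjusted p = 0.0490 and 0.0817), and with all 29 libraries their rho was 0.48 (adjusted p = 0.0867). Gal and Crh were then at rho 0.52 (permutation test, adjusted p = 0.04997), while Gal and Cck were at 0.74 (adjusted p = 0.0026).

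**Figure D3:**
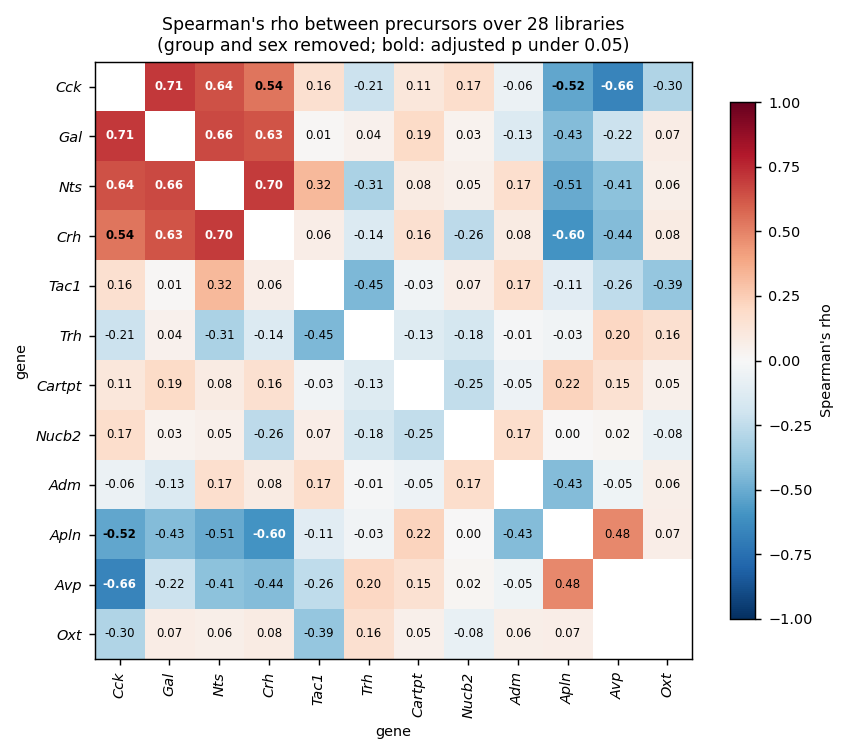
Spearman's rho (colour and printed value) between deviations of log2 CPM of the 10 precursors, Avp and Oxt over 28 libraries, with group and sex removed; bold marks an adjusted p under 0.05. Cck, Gal, Nts and Crh form a block from 0.54 to 0.71, and Apln with Crh and Cck, and Avp with Cck, are negative.

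The same libraries carried several of these peptides. In Rehydrated M06 Gal, Crh and Cck were at their highest of that group, 128, 16.7 and 19.6 CPM, and Nts was second at 140 CPM. In Dehydrated F04 Nts, Crh and Cck were at the lowest of their group, 38.2, 2.00 and 5.05 CPM. In Control F03 and Control M06 Gal was at 19.9 and 20.1 CPM, Nts at 44.0 and 43.2 CPM, and Cck at 4.65 and 4.71 CPM, the bottom of the Control range for each. In 6 of 29 libraries all 4 precursors lay above their group's median, and in 8 none did.

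Vasopressin ran against cholecystokinin. Cck and Avp had rho -0.66 (permutation test, adjusted p = 0.00559) and r = -0.52 (adjusted p = 0.0817). With all 29 libraries rho was -0.54 (permutation test, adjusted p = 0.0495), just under the threshold. Without the 2 libraries farthest from the Cck median, Rehydrated F03 and M05, r was -0.49. Rehydrated M08, the library lowest in Avp at 201 CPM, was kept in that value. Spearman's rho was -0.73 within Rehydrated, -0.50 within Dehydrated and -0.77 within Control libraries. Apln was negative with Crh (rho -0.60, r = -0.52, permutation tests, adjusted p = 0.00984 and 0.0593) and with Cck (rho -0.52, r = -0.45, adjusted p = 0.0459 and 0.110). The pair of Apln and Cck did not pass with group means alone (permutation test, adjusted p = 0.0736) or with DESeq2 size factors (adjusted p = 0.0528), and its rho was -0.017 within Rehydrated, -0.84 within Dehydrated and -0.72 within Control libraries. Apln with Avp, a pair that is made in the same neurons in the rat, had rho 0.48 and r = 0.33 (permutation tests, adjusted p = 0.0636 and 0.337), which did not pass. No member passed with Oxt, the values running from -0.39 for Tac1 to 0.16 for Trh. Cartpt, Trh, Nucb2, Adm and Tac1 were in no pair that passed.

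**Figure D4:**
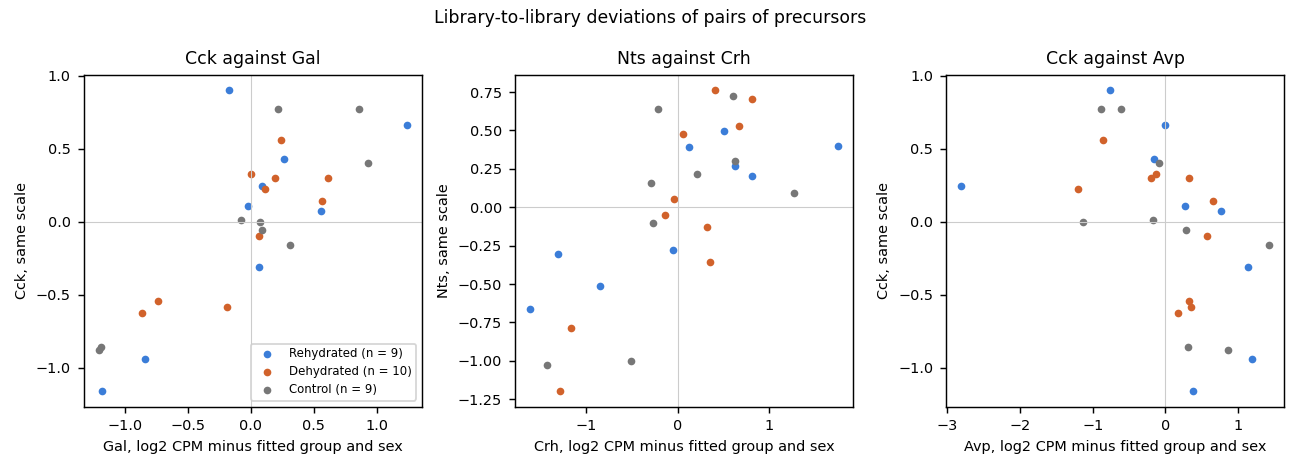
Deviations of log2 CPM from the fitted group and sex in 28 libraries, coloured by group, for Cck against Gal, Nts against Crh, and Cck against Avp. The first 2 panels rise together in all 3 groups (rho 0.71 and 0.70), and the last falls (rho -0.66), with Rehydrated M08 far to the left.

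Markers of neighbouring tissue and of cell type were set beside the 4 precursors. For 8 forebrain markers, Spearman's rho with Cck lay between -0.28 and 0.36, and the cortical markers Neurod2 and Neurod6 were near 0 (means of 0.22 and 0.35 CPM). Of 11 magnocellular markers 9 were negative with Cck, the lowest being the lineage factors Otp (rho -0.77) and Sim1 (rho -0.71), named after their values were seen. The sign was shared: 10 of 11 endothelial, 5 of 5 oligodendrocyte, 5 of 6 microglia and 6 of 8 mural markers were negative too. So were 5 of 6 astrocyte and 5 of 6 meningeal markers, all of these counts being for Cck. The other precursors differed: 5 of 6 astrocyte markers were positive with each of Gal, Crh and Nts. Meningeal markers were negative in 6 of 6 with Gal and 5 of 6 with Nts, but positive in 4 of 6 with Crh. Of 4 lateral hypothalamic markers 3 were negative with each of the 4 precursors, as were 2 of 2 blood markers. Suprachiasmatic and arcuate markers had both signs with Cck. With Cck, 3 of 3 ependymal and tanycyte markers and 3 of 4 transmitter markers were positive. Among transmitter markers Gad2, an enzyme of GABA synthesis, had rho 0.76 with Nts and 0.65 with Crh, and Slc17a6, the vesicular glutamate transporter, had rho -0.45 and -0.44 with them. These coefficients are descriptions over the same 28 libraries, and the part of punch position in the shared variation was not tested.

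The genes whose library pattern was most like each member's, by Spearman's rho among 12147 tested genes with 1 symbol each and a mean of at least 1 log2 CPM, were ranked for each. For Gal they were Brs3 (0.84), Dlk1 (0.80) and Rtl1 (0.78). For Crh they were Penk (0.88), the proenkephalin precursor, Gbx2 (0.82) and Stac (0.77). For Nts they were Rnf152 (0.80), Gabrq (0.78) and Gad2 (0.76), and for Cck they included Cpne4 (0.80) and Gabrq (0.74). Gabrq, a subunit of the GABA-A receptor, was thus on both lists.

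For Trh the most alike genes were Prdm8 (0.81), Cbln1 (0.78) and Slc17a6 (0.71). For Cartpt they were Glp1r (0.69), the receptor of glucagon-like peptide 1, Fam89b (0.68) and Cys1 (0.67). Pdyn, the dynorphin precursor of vasopressin neurons, had rho 0.55 with Cartpt and 0.55 with Apln. Avp itself had rho 0.15 with Cartpt. Of the 11 magnocellular markers, Pdyn among them, 7 were positive and 4 negative with Cartpt (-0.38 to 0.57). With Apln 10 were positive and 1 negative (-0.086 to 0.55). For Apln the leading genes were Ccdc86 (0.74), 2510039O18Rik (0.65) and Slc41a2 (0.64). For Adm they were Trappc13 (0.63), Vcpkmt (0.60) and Gmnn (0.59), for Tac1 Fancc (0.73), Tmem199 (0.69) and Tmc4 (0.68), and for Nucb2 Htatsf1 (0.79), Cep95 (0.76) and Rbm48 (0.75). Each is the top of a ranking over many genes, with no test attached. Control M01 was left out of the rankings, and with all 29 libraries several values were lower. For Gal, Dlk1 was then at 0.59 and Rtl1 at 0.60, and for Cck Gabrq was at 0.52. Ccdc86 was at 0.57 with Apln and Trappc13 at 0.46 with Adm. Others held, such as Brs3 with Gal at 0.86 and Penk with Crh at 0.88.

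The receptors and binding proteins of the 10 peptides likewise held no call. Of 21 listed, 18 were tested, and 0 passed in Dehydrated against Control with edgeR, 12 being higher and 6 lower, with a median log2 fold change of 0.14. Tacr1, the substance P receptor, had the smallest p (log2 fold change 0.59, SE 0.16, edgeR adjusted p = 0.271), with 18.3 ± 4.08 CPM in Dehydrated and 12.1 ± 2.66 CPM in Control libraries. Crhr2, a receptor of corticotropin-releasing hormone and urocortins, was next (log2 fold change 0.49, SE 0.24, edgeR adjusted p = 0.762), at 2.47 ± 0.768 CPM in Dehydrated and 1.74 ± 0.720 CPM in Control libraries. These were the 2 of 18 with an unadjusted p under 0.05, against 6.37% of all genes, and 0 of 18 passed in Rehydrated against Dehydrated. Of 14 related precursors (urocortins, other tachykinins, Nucb1 and others) 6 were tested and 0 passed, with 1 higher and 5 lower and no unadjusted p under 0.05. The smallest p among them were those of Nmb, the neuromedin B precursor (log2 fold change -0.47, SE 0.39), and Ucn3, the urocortin 3 precursor (-0.41, SE 0.42).

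Among 12 enzymes and chaperones that cut or finish such precursors, 1 changed. Pcsk1, prohormone convertase 1, averaged 329 ± 131 CPM in Dehydrated and 125 ± 36.96 CPM in Control libraries (log2 fold change 1.39, SE 0.23, edgeR adjusted p = 0.00369), and it stood at 136 ± 27.2 CPM in Rehydrated libraries, lower than in Dehydrated ones (log2 fold change -1.26, edgeR adjusted p = 0.0411). With 1 library left out in turn, Pcsk1 kept its call in Dehydrated against Control in all 29 fits, but lost that in Rehydrated against Dehydrated in 21 of 29 (edgeR adjusted p from 0.0017 to 0.144, log2 fold change from -1.36 to -1.19). Pam, which amidates peptides such as cholecystokinin and substance P, came next at 618 ± 75.1 CPM in Dehydrated and 521 ± 64.5 CPM in Control libraries (log2 fold change 0.24, edgeR adjusted p = 0.485). The vasopressin-neuron precursors gave the scale of the response against which the 10 stood: Avp averaged 3293 ± 1198 CPM in Dehydrated and 934 ± 597 CPM in Control libraries (log2 fold change 1.81, edgeR adjusted p = 0.0388), and Pdyn 142 ± 51.6 CPM in Dehydrated and 64.4 ± 15.2 CPM in Control libraries (1.13, edgeR adjusted p = 0.00369). Of 11 magnocellular markers 3 passed, the third being Caprin2, an RNA-binding protein that binds vasopressin mRNA in the rat, with 64.5 ± 31.2 CPM in Dehydrated and 31.6 ± 5.70 CPM in Control libraries (log2 fold change 0.98, edgeR adjusted p = 0.0109). It did not pass with only those 2 groups in the fit (edgeR adjusted p = 0.0804). Pdyn and Caprin2 kept their calls in all 29 fits with 1 library left out, while Avp lost its call in 19 of 29 (edgeR adjusted p from 0.00681 to 0.107, log2 fold change from 1.71 to 2.07).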

How the data were processed

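The authors deposited raw counts per gene for 29 libraries, made with featureCounts 1.6.2 without strand, per the file headers, and tables of log2 fold changes and p-values from DESeq2, a tool that the submitters' processing notes name. No aligner is named in the labels, headers or notes. The deposited tables have no column for Control M01, and their 56 columns of values per library were not used.

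Tests used edgeR 4.0.16 (R 4.3.3): TMM scaling, filterByExpr on group (17558 genes kept), a robust quasi-likelihood fit with group and sex over 29 libraries (25 residual degrees of freedom), and Benjamini-Hochberg adjustment at 0.05 over all tested genes. Fits with a sex interaction gave the sex difference of a response. Alternatives included DESeq2 1.42.0. Correlations used log2 CPM with a prior count of 2, less the fitted group and sex, and 100000 permutations of libraries within groups, two-sided, adjusted over 65 pairs. Genes without a symbol in the deposited tables were named by an overlap of at least 0.5 with RefSeq spans. None of the 10 overlaps another gene model.

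The 10 members, the gene lists and the tests were chosen with earlier results of these data known. Every member is named in each of the 4 comparisons, with the 3 genes most like it (2 for Cck; 1 forebrain marker is not reported here), and from the lists of receptors, related precursors, enzymes and magnocellular markers the genes that passed or up to 2 with the smallest p. In the lists of other tissue and cell types no gene but Pdyn passed, and their genes are named only beside a result. The test was tried on simulated counts before use. All 126 pairs of libraries within a group differed beyond sampling noise, with a chi-square of 8.52 to 152 times its degrees of freedom, and no library is a duplicate of another. With 10797577 to 18856620 counts per library, log2 fold changes over all genes had a median standard error of 0.12 in Dehydrated against Control.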

Additional observations from a re-analysis of the deposited data

Results flagged for a closer look

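Of 30 sets of 9 or 10 libraries (10 precursors in 3 groups), 1 held a library far from the rest by Dixon's criterion, and chance flags about 1 in 20. Nucb2 in Control M01 stood at 116 CPM, while the next Control library stood at 62.4 CPM. The gap was 0.626 of the group's range, over the limit of 0.466 for 10 libraries. Without this library the log2 fold change of Nucb2 in Dehydrated against Control was 0.097 in place of -0.080, and neither value passed the test.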

How the results depend on the processing

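The count of members past the threshold was 0 in each of the 4 comparisons under all alternatives run, and the smallest adjusted p of any was 0.0516, for Cartpt in Dehydrated against Control under DESeq2 without Control M01. The count over all genes did move. In Dehydrated against Control it was 22, against 40 with DESeq2 (40 without Control M01), 11 with those 2 groups alone, 12 with a replicate block, 0 in females, 0 in males, 0 in libraries with F and 13 in libraries with M in their name, and 10 to 27 with 1 library left out. In Rehydrated against Control it was 0, against 20 with DESeq2 (3 without Control M01), 2 in females, and 0 to 2 with 1 library left out. In Rehydrated against Dehydrated it was 4, against 13 with DESeq2 (16 without Control M01), 1 with those groups alone, 0 in females, 1 in males, 0 in libraries with F, 0 with M, and 2 to 9 with 1 library left out. In female against male it was 6, against 10 with DESeq2 (12 without Control M01), 16 with no filter and 2 with the name letter in place of sex. The 9 correlated pairs were 5 by Pearson's r, and at most 8 with all 29 libraries, group means alone or DESeq2 size factors. Crh and Cck did not pass with all 29 libraries (permutation test, adjusted p = 0.0867). Apln and Cck did not pass with group means alone (permutation test, adjusted p = 0.0736) or with DESeq2 size factors (adjusted p = 0.0528).

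Several small log2 fold changes, none past the test, changed sign, and the cause was not tested. In Dehydrated against Control they were, in females, Crh -0.17, Nucb2 0.096, Nts -0.12 and Cck 0.064. In libraries with F in their name, Crh was -0.15, Nucb2 0.17, Nts -0.080 and Cck 0.067. With the replicate block Gal was 0.015, Nts -0.15 and Cck 0.083, and under DESeq2 without Control M01 Nucb2 was 0.096 and Cck 0.025. In Rehydrated against Control, Gal was -0.16 and Crh -0.63 in females, and Crh -0.62 in F libraries. Nucb2 was -0.18 in males and -0.25 in M libraries. Tac1 was -0.0035 with no sex term, -0.0038 with the name letter, -0.093 in males, -0.061 with the block and -0.18 in M libraries. In Rehydrated against Dehydrated, Crh was -0.053 with those groups alone, -0.46 in females and -0.47 in F libraries. Trh was -0.0015 under DESeq2 without Control M01, -0.12 in females and -0.18 in F libraries. Apln was 0.041 in females, and Nts -0.042 in males and -0.063 in M libraries. Leaving out 1 library gave, in Dehydrated against Control, -0.13 to 0.097 for Nucb2, -0.076 to 0.11 for Nts and -0.21 to 0.020 for Cck. In Rehydrated against Control it gave -0.15 to 0.20 for Gal, -0.10 to 0.40 for Crh and -0.039 to 0.061 for Tac1. In Rehydrated against Dehydrated it gave -0.26 to 0.20 for Crh, -0.081 to 0.092 for Trh and -0.29 to 0.035 for Apln.

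Library names shared between groups did not pair libraries: deviations of 19 same-named pairs correlated from -0.12 to 0.11, with 2 over 0.1. Apln fell under some of the filters and has no value there. Libraries chosen by the letter in their name were added after the data were seen. Low counts limit Apln and Adm most, with medians of 7.5 to 26 per group.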
